A study of Mus musculus with 4 samples.

Results

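Transcripts of 6 cytokine and growth factor receptors of early B-cell development were followed in single bone marrow cells: Il7r, Crlf2, Il2rg, Il2ra, Kit and Flt3. They were chosen by name, and their raw UMI counts (unique molecular identifiers, 1 per captured transcript) were taken from the deposited matrices, in which they are 6 of 32285 genes. Donor-type cells carrying the surface antigen CD45.2 were sorted from mouse bone marrow 10 weeks after a transplantation, and their transcripts were captured as droplet libraries that read the 5′ end. There were 4 libraries, 1 per group: control cells sorted on Kit, Mll3/4 deleted cells sorted on Kit, Mll3/4SI cells sorted on Kit, and control cells sorted on low B220 (a surface protein of the B lineage). Kmt2c encodes MLL3 and Kmt2d encodes MLL4, both enzymes that methylate histones at enhancers. The series addresses their part in stem cell renewal, myeloid identity and B-cell priming. The labels do not expand SI, and they give neither the alleles, the promoter that drove the deletion, the age and strain of the mice, nor the number of mice per library.

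Interleukin-7 is the main cytokine of mouse B-cell progenitors, and its receptor is a pair made of the Il7r chain and the common gamma chain encoded by Il2rg. Crlf2 pairs with the Il7r chain to bind thymic stromal lymphopoietin (TSLP), and Il2ra (CD25), the alpha chain of the interleukin-2 receptor, is a classical surface marker of the pre-B stage. Kit and Flt3 are receptor tyrosine kinases for stem cell factor and for FLT3 ligand. Flt3 marks multipotent and lymphoid-primed progenitors, Kit marks stem cells, progenitors and pro-B cells, and both are normally lost as B cells mature.

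In build GRCm38 with GENCODE genes, Il7r lies at chr15:9505788-9530176 (minus strand), Crlf2 at chr5:109554709-109558993 (minus), Il2rg at chrX:101264378-101268255 (minus), Il2ra at chr2:11642807-11693193 (plus), Kit at chr5:75574916-75656722 (plus) and Flt3 at chr5:147330741-147400489 (minus). Because the libraries read transcripts from their 5′ end, the bases just before 3 start sites are shown. They are those of Kit, Flt3 and Il2ra. B-lineage cells of the control B220lo library were grouped by their assembled immunoglobulin chains. Counts of Kit and Flt3 differed most between these groups and were high or low together there. Their lowest counts there are not shown to exceed free RNA, transcripts from outside the cell. Il2ra was near 0 in deleted B-lineage cells and present in all of these B220lo groups. The sequences are RefSeq's of build GRCm38.p6, read 5′ to 3′ on the gene's strand, without bases that GENCODE places inside the gene. The Kit window is chr5:75574737-75574915 (plus strand, 179 bases), the Flt3 window is chr5:147400490-147400739 (minus strand, 250 bases) and the Il2ra window is chr2:11642542-11642791 (plus strand, 250 bases). Capitals mark matches on either strand to 6 short motifs: TTCNNNGAA (STAT factors), TGTGGT (Runx), GAGGAA (Ets), CAGCTG and CAGGTG (E-boxes) and CCCNNGGG (Ebf).
Kit: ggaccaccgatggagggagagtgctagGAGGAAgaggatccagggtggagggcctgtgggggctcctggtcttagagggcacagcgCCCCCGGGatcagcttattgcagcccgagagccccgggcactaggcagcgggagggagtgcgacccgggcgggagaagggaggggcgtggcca
Flt3: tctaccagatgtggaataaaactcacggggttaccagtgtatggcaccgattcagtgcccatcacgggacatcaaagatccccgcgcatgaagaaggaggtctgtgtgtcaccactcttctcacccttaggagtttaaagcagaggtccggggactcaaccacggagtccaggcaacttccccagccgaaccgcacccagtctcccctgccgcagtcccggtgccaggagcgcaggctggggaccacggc
Il2ra: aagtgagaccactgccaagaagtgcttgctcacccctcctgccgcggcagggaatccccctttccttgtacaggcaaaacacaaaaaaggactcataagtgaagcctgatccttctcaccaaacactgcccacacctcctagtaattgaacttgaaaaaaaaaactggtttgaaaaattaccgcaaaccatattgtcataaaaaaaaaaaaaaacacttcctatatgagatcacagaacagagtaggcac
The Kit window held 1 match to GAGGAA and 1 to CCCNNGGG, which did not overlap, and the Flt3 and Il2ra windows held 0 matches to any of the 6. Over 32851 RefSeq windows of 250 bases, GAGGAA occurred in 23.3%, CCCNNGGG in 11.8%, TTCNNNGAA in 7.02%, TGTGGT in 14.0%, CAGCTG in 4271 windows and CAGGTG in 17.2%. A match describes letters in these windows and nothing about binding.

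After filtering, 11051 control Kit+, 13747 deleted Kit+, 11501 SI Kit+ and 15380 control B220lo cells were kept, with median depths of 11594, 6507, 11969 and 3246 UMIs. Library pairs shared 178 to 292 kept barcodes, 1.38 to 2.14% of a library. Cells were placed in marker classes from lists that hold none of the 6 receptors. The B-lineage class took 94.3% of the deleted library (12959 cells) and 81.3% of the B220lo library (12498 cells), against 46 control Kit+ and 25 SI Kit+ cells. The median B-lineage cell had 9 of the 12 B markers in the deleted and 8 in the B220lo library. Kmt2c stood at 58.1, 51.8, 62.7 and 144 CPM and Kmt2d at 24.0, 20.1, 20.7 and 41.0 CPM in the control, deleted, SI and B220lo libraries (CPM, UMIs of a gene scaled to a common total over the cells named). The labels do not say which exons were removed, so these 5′ reads do not check the deletion. The 4 Y-linked genes Ddx3y, Eif2s3y, Kdm5d and Uty summed to 148 CPM in the deleted library and to 0.570 CPM or less in the others, so sex and genotype cannot be told apart, which also touches the X-linked Il2rg. With 1 library per group no difference was tested, and all intervals below are exact 95% Poisson or binomial intervals that cover counting error only.

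Over whole libraries the 6 receptors fell into different patterns. Il7r was at 0.366 CPM in control Kit+ cells, 367 CPM in deleted Kit+ cells, 0.755 CPM in SI Kit+ cells and 283 CPM in control B220lo cells. Kit, the gene of the sorted antigen, was at 219.7, 358, 253 and 16.1 CPM in the same order, and only the B220lo library had not been sorted on it. Flt3 was at 33.3, 34.5, 36.4 and 43.9 CPM and differed little between whole libraries. Crlf2 was at 82.4, 81.3, 118 and 56.0 CPM, and Il2rg was at 48.8, 71.1, 91.7 and 99.2 CPM. Il2ra was nearly absent from all Kit+ libraries, whose control, deleted and SI cells held 2, 2 and 13 UMIs, against 6486 UMIs (84.0 CPM) in the B220lo library. Of the 5 members with at least 100 UMIs in the higher library, 1 (Il7r) was 2-fold or more higher in deleted than in control Kit+ cells, against 13.7% of all such genes, and 0 were 2-fold lower, against 10.1%. In SI over control cells 0 of 5 were 2-fold apart, against 2.3% higher and 0.983% lower. The deleted library was mostly B-lineage cells, so these whole-library values mix classes, and the classes are taken apart below.

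**Figure D1:**
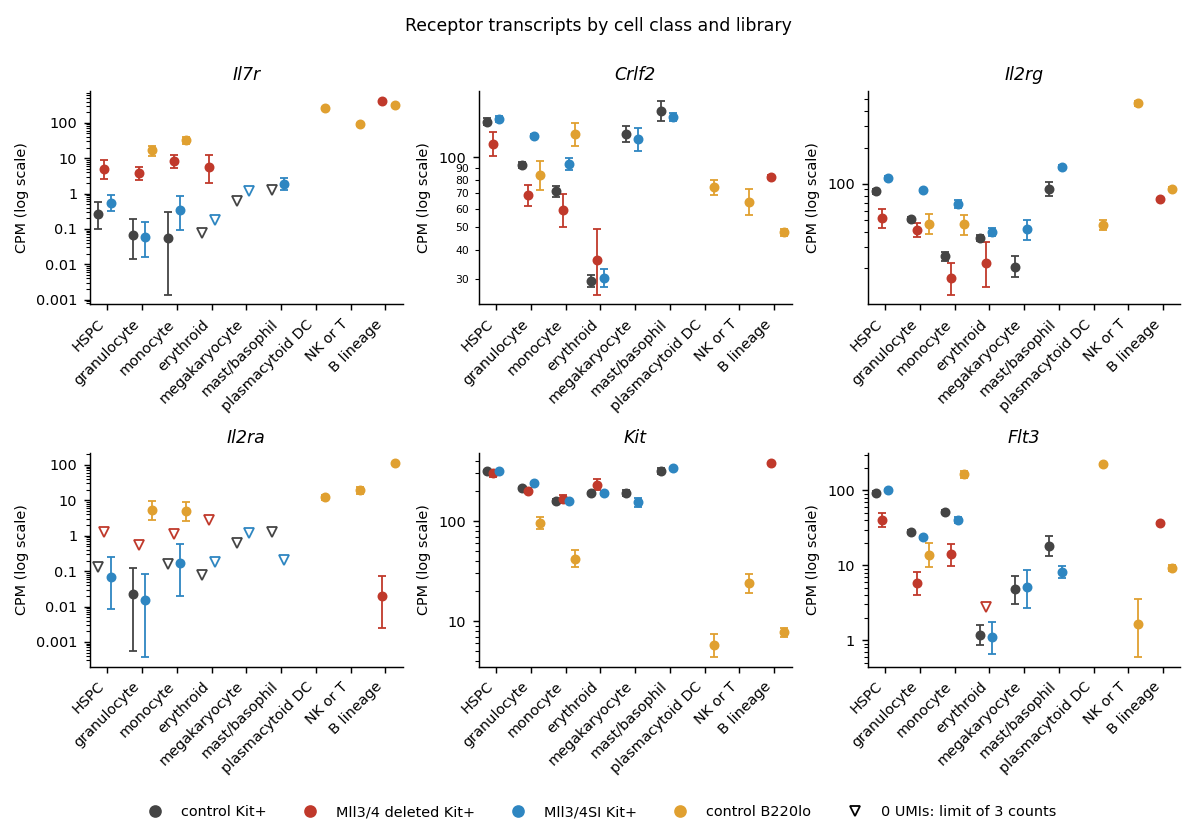
CPM (log axes) of the 6 receptors in marker-defined cell classes with at least 50 cells, by library; points carry 95% Poisson intervals and open triangles mark 0 UMIs at the limit of 3 counts. Il7r was highest in B-lineage, plasmacytoid dendritic and NK or T cells, Il2ra in B-lineage cells of the B220lo library, and Flt3 in plasmacytoid dendritic cells (223 CPM).

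B-lineage cells were then divided by the immunoglobulin chains assembled for each cell in the deposited contig tables. A state tells which chains were assembled and need not place the cells in the order of rearrangement. The deleted library held 9934 cells with no contig and 2992 with a heavy chain only, and its other states had at most 13 cells and get no ratio. The B220lo library held 3680 cells with no contig, 1709 with a heavy chain only, 576 with a light chain only, and 3341 and 3192 cells with both chains and without or with a UMI of Ms4a1 (CD20, a marker of later stages). A missing contig can also be a contig that was not captured, and the share of such cells was not tested.

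Il7r, the chain that binds interleukin-7, was at 406 CPM (401 to 410) in deleted no-contig cells and at 440.3 CPM (432 to 449) in deleted heavy-only cells. In the B220lo library it was at 393, 389.6, 237, 384 and 149.8 CPM in no-contig, heavy-only, light-only, Ms4a1- and Ms4a1+ cells. The no-contig, heavy-only and Ms4a1- levels had overlapping intervals, and Ms4a1+ cells were lowest, at 0.390 times the Ms4a1- level (0.371 to 0.410). At the same contig state the deleted level was 1.03 times the B220lo level without a contig (1.01 to 1.06) and 1.13 times with a heavy chain only (1.09 to 1.17). The direction turned with the cell cycle: without a contig the ratio was 0.889 in cycling cells (0.853 to 0.927) and 1.19 in other cells (1.15 to 1.24), and with a heavy chain only it was 0.959 (0.913 to 1.01) and 1.17 (1.11 to 1.25).

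Crlf2, the TSLP receptor chain, was higher in the deleted library at both states. It stood at 82.8 CPM without a contig and 80.1 CPM with a heavy chain in deleted cells, and these intervals overlapped. B220lo cells had 45.4 CPM without a contig, 37.6 CPM with a heavy chain only, 51.2 CPM with a light chain only, 46.5 CPM in Ms4a1- and 57.8 CPM in Ms4a1+ cells. Both deleted levels lay above all 5 of these, by 2.13 times at the heavy-only state (1.90 to 2.39).

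Il2rg, the shared gamma chain, was at 74.6 and 77.0 CPM in deleted no-contig and heavy-only cells, again with overlapping intervals. In B220lo cells it was at 67.3, 61.9, 109, 78.0 and 152 CPM over the 5 states. The Ms4a1+ cells were highest, at 1.95 times the Ms4a1- level (1.82 to 2.10), which is the opposite order from Il7r. The deleted heavy-only level was 1.24 times that of B220lo heavy-only cells (1.13 to 1.37). This ratio was 1.42 in cycling cells (1.24 to 1.62) and 0.901 in other cells (0.790 to 1.03).

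Il2ra, the CD25 chain, was nearly absent from deleted B-lineage cells and present in B220lo ones. Only the deleted cells had been sorted on Kit, so sort and genotype cannot be told apart here. The 20 no-contig B cells of the control Kit+ library also held 0 UMIs (a limit of 22.0 CPM). B220lo no-contig cells had 9.05 CPM with a Kit UMI and 133 CPM without one. In 9934 deleted no-contig cells there were 0 UMIs, a limit of 0.0400 CPM at 3 counts, and in 2992 heavy-only cells there were 2 UMIs (0.0861 CPM, 0.0104 to 0.311). B220lo cells were at 120.1, 103, 121, 141 and 68.3 CPM in no-contig, heavy-only, light-only, Ms4a1- and Ms4a1+ cells. Without a contig the deleted level was thus at least 3006-fold lower against the floor of 3 counts (2442-fold at the near end of the exact interval), and with a heavy chain only its ratio to B220lo was 0.000836 (0.000101 to 0.00303, from 2 against 1019 UMIs, the 2 in 1 cell). Erythroid cells of the B220lo library, which should lack Il2ra, had 6.01 CPM of it (5 UMIs in 43 cells), below all 5 B-lineage states.

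Kit was high at both deleted states, 372 CPM without a contig and 389 CPM with a heavy chain. In the B220lo library it was at 18.6 CPM (288 UMIs) without a contig, 2.12 CPM (21 UMIs) with a heavy chain only, 12.3 CPM with a light chain only, and 3.43 and 3.69 CPM in Ms4a1- and Ms4a1+ cells. Deleted heavy-only cells had 183 times the Kit of B220lo heavy-only cells (120 to 297), and only the deleted cells had been sorted on Kit. The ratio was 117 in cycling cells (75.1 to 195, from 19 B220lo UMIs). In other cells it was 681 (188 to 5623, from 2 B220lo UMIs), and these intervals overlapped. The B220lo heavy-only level of 2.12 CPM lay below that of plasmacytoid dendritic cells (5.76 CPM) and of NK or T cells (23.8 CPM) in the same library. It is thus not read as expression, and these folds describe counts only. The no-contig level of 18.6 CPM (16.5 to 20.9) was above plasmacytoid dendritic cells. It overlapped that of NK or T cells (19.1 to 29.4), which are not shown to lack Kit. Heavy-only counts were 0.114 times the no-contig counts (0.0696 to 0.178). How much of either is free RNA was not tested, so this is read as a difference in counts only. In the deleted library, where every cell had passed the Kit sort, heavy-only cells had 1.05 times the Kit of no-contig cells (1.02 to 1.07).

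Flt3 was at 38.6 CPM (37.3 to 40.1) in deleted no-contig cells and 32.8 CPM (30.5 to 35.2) in deleted heavy-only cells. In the B220lo library it was at 18.7, 3.74, 7.999, 5.41 and 7.23 CPM in no-contig, heavy-only, light-only, Ms4a1- and Ms4a1+ cells, and the heavy-only level was 0.200 times the no-contig level (0.138 to 0.283). The corresponding value in the deleted library was 0.849 (0.782 to 0.919). Deleted heavy-only cells had 8.77 times the Flt3 counts of B220lo heavy-only cells (6.30 to 12.6). The B220lo heavy-only level (2.63 to 5.15 CPM) overlapped that of NK or T cells (1.63 CPM, 0.596 to 3.54) and erythroid cells (1.20 CPM, 1 UMI) of the same library, so it is not shown to exceed free RNA.

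**Figure D2:**
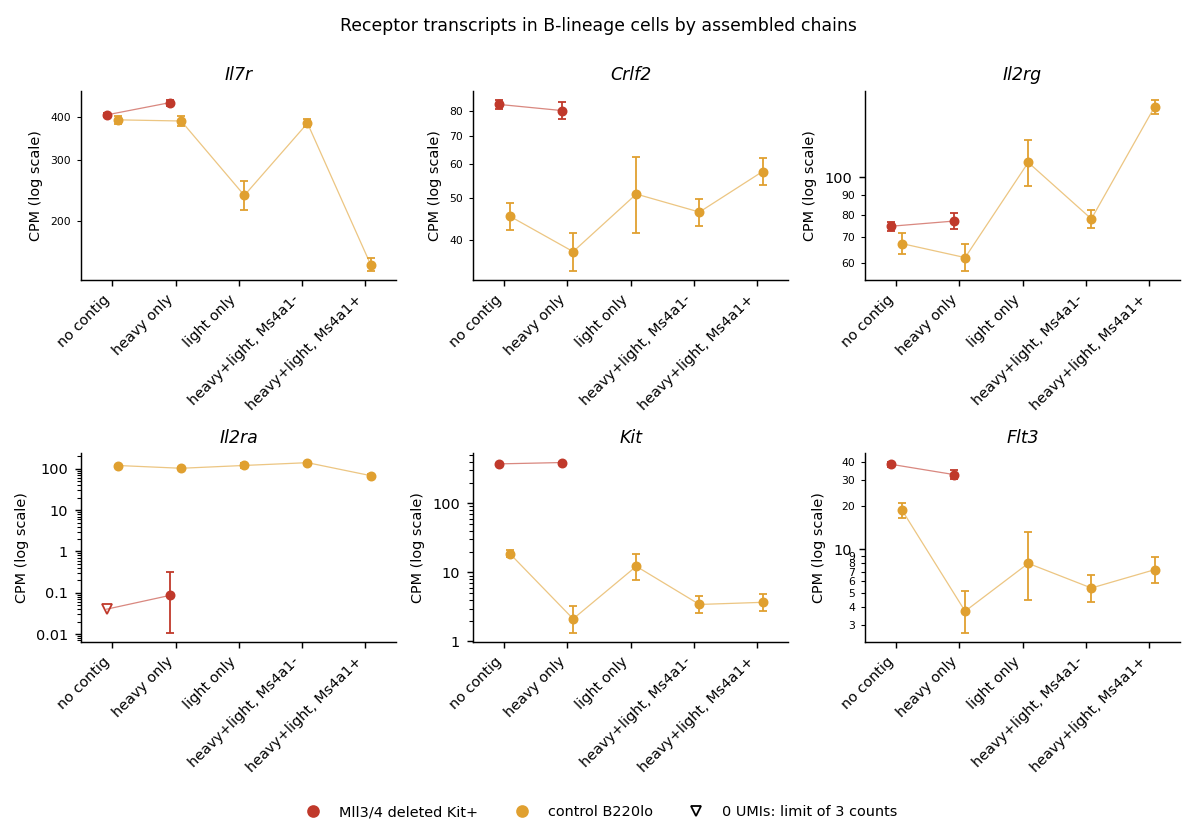
CPM (log axes) of the 6 receptors in B-lineage cells by assembled chains, for states of at least 50 cells in the deleted Kit+ and control B220lo libraries; points carry 95% Poisson intervals and the open triangle marks 0 UMIs at the limit of 3 counts. Il7r lay close together in both libraries at the first 2 states. Il2ra was near 0 in the deleted cells, and only these had been sorted on Kit. The B220lo heavy-only counts of Kit and Flt3 are not shown to exceed free RNA.

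A log2 ratio of CPM with 1 CPM added to both sides was used to count differences, and 2-fold or more was called apart. At the heavy-only state 3 of the 6 receptors were higher in deleted cells (Kit 6.97, Flt3 2.83, Crlf2 1.07 on the log2 scale), against 15.6% of all 10406 genes with at least 100 UMIs in the higher group. Only the deleted cells had been sorted on Kit. Its place in this count, and in the no-contig count below, was thus set by the sort. Without Kit, Flt3 and Crlf2 remain here and Flt3 alone remains without a contig. One was lower (Il2ra, -6.58), against 8.97%. Crlf2 was under 2-fold with a pseudocount of 10 CPM (0.92) and with contigs of at least 3 UMIs (0.96). Without a contig 2 were higher (Kit 4.25, Flt3 1.01), against 13.1%, and Il2ra was lower at -6.92, against 12.3%. Flt3 was under 2-fold there in cycling cells (0.75), with doublets kept (0.81), with a stricter cell filter (0.90) and with a pseudocount of 10 CPM (0.76). Within the B220lo library 2 of 6 were lower in heavy-only than in no-contig cells (Kit -2.65, Flt3 -2.05), against 3.74%, and 0 were higher, against 0.258%. Neither heavy-only level is shown to exceed free RNA, so the size of these 2 differences is one of counts. The no-contig level of Flt3 (18.7 CPM, 16.6 to 20.9) did lie above that of NK or T cells (1.63 CPM, 0.596 to 3.54) of the same library. It overlapped that of granulocytes (13.8 CPM, 9.41 to 19.7), which are not shown to lack Flt3. Within the deleted library 0 of 5 reached 2-fold either way, against 0.293% higher and 0.0888% lower. Among B220lo cells with both chains, 2 of 4 members with enough UMIs were lower with Ms4a1 (Il7r -1.35, Il2ra -1.03), against 2.23%, and 0 were higher, against 4.05%. The Il2ra value was under 2-fold with doublets kept (-0.93), with a stricter cell filter (-0.95) and with a pseudocount of 10 CPM (-0.94).

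The sorts differ, so no-contig cells with at least 1 UMI of Kit were compared as a nearer match, a choice made after the data were seen. There were 8290 such cells in the deleted and 185 in the B220lo library, with median depths of 6636 and 5801 UMIs. Flt3 was then at 39.2 CPM in deleted and 42.8 CPM in B220lo cells, a ratio of 0.916 (0.723 to 1.18), where all no-contig cells had given 2.07 (1.84 to 2.35). Il2ra in B220lo cells was at 9.05 CPM (15 UMIs) with a Kit UMI and 133 CPM without one, a ratio of 0.0678 (0.0379 to 0.112). The 9.05 CPM (5.06 to 14.9) overlapped the level of classes that should lack Il2ra in the same library, erythroid cells at 6.01 CPM (1.95 to 14.0), granulocytes at 5.36 CPM and monocytes at 5.02 CPM, and is not read as expression. Deleted cells with a Kit UMI had 0 UMIs of Il2ra, a limit of 0.0456 CPM, and no difference from the B220lo cells with a Kit UMI is read from it.

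The other chains were higher in the deleted library in these cells with a Kit UMI, all by less than 2-fold. The median gene was higher there too, at 0.21 on the log2 scale. Such cells are called Kit-matched below, though their Kit levels differed. Il7r was at 401 against 268 CPM (1.49 times, 1.36 to 1.65), Crlf2 at 81.9 against 51.3 CPM (1.60 times, 1.29 to 2.003) and Il2rg at 74.3 against 48.9 CPM (1.52 times, 1.22 to 1.92). Of these 3, the members with enough UMIs beside Kit, 0 were 2-fold higher, against 16.4% of genes, and 0 were 2-fold lower, against 4.45%. Kit stood at 424.5 against 174 CPM, a level that the choice of cells conditions. A UMI of Kit is not the surface gate: free RNA and depth can place a cell on either side, and how often was not tested. Within no-contig cells of B220lo, cells with a Kit UMI had 2.72 times the Flt3 of those without (2.05 to 3.57). Control Kit+ cells gave the only control B cells sorted on Kit, 20 with no contig, too few for a ratio. They held 34 UMIs of Il7r (250 CPM, 173 to 349), 22 of Kit (161 CPM), 4 of Flt3 (29.4 CPM), 17 of Crlf2 (125 CPM), 8 of Il2rg (58.7 CPM) and 0 of Il2ra, which allows up to 22.0 CPM and so lies below the 120.1 CPM of B220lo no-contig cells.

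**Figure D3:**
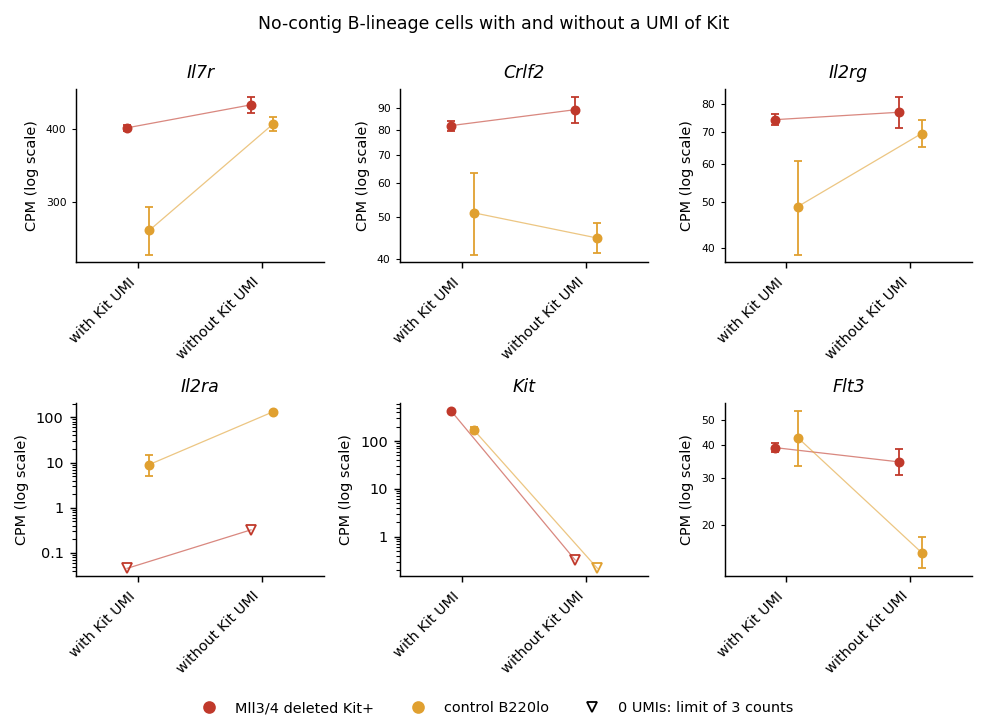
CPM (log axes) of the 6 receptors in no-contig B-lineage cells with and without a UMI of Kit, in the deleted Kit+ and control B220lo libraries, with 95% Poisson intervals; open triangles mark 0 UMIs at the limit of 3 counts. With a Kit UMI the Flt3 intervals of both libraries overlap (39.2 and 42.8 CPM), and Il2ra of B220lo cells with a Kit UMI (9.05 CPM) is at the level of that library's erythroid cells (6.01 CPM); the Kit panel shows the rule itself.

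Cells with at least 3 of 12 cell cycle genes detected were called cycling, and because detection grows with depth these cells were also deeper (medians of 8035 against 2423 UMIs in B220lo heavy-only cells). Il2ra was the receptor most tied to this division in the B220lo library, while deleted cells held too few UMIs of it to tell. In B220lo heavy-only cells it was at 31.4 CPM in cycling and 280.3 CPM in other cells (a ratio of 0.112, 0.0959 to 0.130), and in no-contig cells at 33.9 and 209 CPM. Il7r also took a smaller share of the UMIs in cycling cells, at 339 against 564 CPM in deleted heavy-only cells and at 353 against 481 CPM in B220lo heavy-only cells. Its counts per cell were not lower: the 642 cycling B220lo heavy-only cells held 2487 UMIs of it and the 1067 others 1368. Il2rg followed, with 64.5 against 92.1 CPM in deleted and 45.6 against 102 CPM in B220lo heavy-only cells. Its counts per cell were not lower either, with 321 UMIs in the 642 cycling B220lo heavy-only cells and 291 in the 1067 others. Crlf2 was nearly even in the B220lo library, at 37.5 and 37.9 CPM. In heavy-only B220lo cells 2 of 4 members (Il2ra and Il2rg) were 2-fold lower in CPM in cycling cells, against 11.9% of genes. There 0 were higher, against 16.0%. In the deleted heavy-only cells 0 of 5 reached 2-fold, against 5.62% higher and 1.53% lower. Among non-cycling cells the order of the 2 states turned for Il2ra in B220lo, with heavy-only cells above no-contig cells (280.3 against 209 CPM). Deleted non-cycling heavy-only cells held 0 UMIs of Il2ra, at least 979-fold lower than in B220lo against the floor of 3 counts (794-fold at the near end of the exact interval). Sort and genotype cannot be told apart in this value either.

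Heavy-chain clones, cells sharing V and J segments and the amino acids of the junction, showed how much of the deleted library's pattern came from few clones. Its 2992 heavy-only cells fell into 560 clones, of which 12 had 50 or more cells and together 1745 cells, with 391 in the largest. The 1709 heavy-only cells of the B220lo library fell into 1706 clones. Cells of a clone are taken to share an ancestor and are not independent.

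Across the 12 large clones Flt3 ranged from 5.64 to 48.1 CPM with a median of 20.2 CPM. The lowest value rested on 4 UMIs (1.54 to 14.4), and the 2 smallest of these clones held 4 and 3 UMIs. The 3rd largest clone (209 cells) was at 10.2 CPM (5.73 to 16.9) and the 5th (113 cells) at 48.1 CPM (33.8 to 66.2), so that their intervals did not overlap. Heavy-only cells outside these clones had 43.2 CPM (39.3 to 47.4), above the 32.8 CPM of all heavy-only cells. Il7r ranged from 304 to 651 CPM (median 499), a 2.14-fold range, and Kit from 352 to 578 CPM (median 407), a 1.64-fold range. Crlf2 ranged from 56.9 to 98.9 CPM and Il2rg from 52.7 to 101 CPM. Il2ra was at 0 UMIs in all 12. With 1 cell kept per clone the heavy-only over no-contig log2 ratio in the deleted library went from -0.23 to 0.34 for Flt3, from 0.06 to -0.16 for Kit and from 0.12 to -0.04 for Il7r, so the direction of these small differences rested on the large clones.

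**Figure D4:**
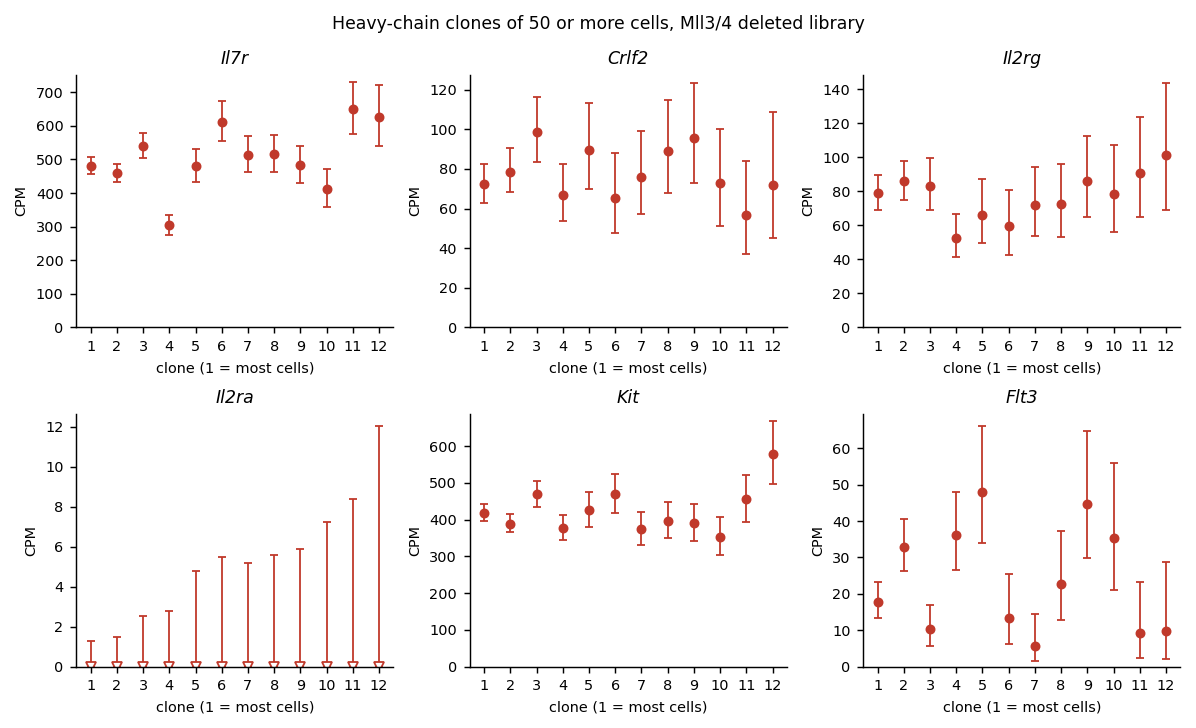
CPM of the 6 receptors in the 12 heavy-chain clones of at least 50 cells in the deleted Kit+ library, ordered by cell number, with 95% Poisson intervals; open triangles at 0 mark clones without a UMI. Flt3 lay between 5.64 CPM (4 UMIs) and 48.1 CPM (37 UMIs) and Il2ra had 0 UMIs in each.

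The other genes of these pathways were described from lists, at the heavy-only state, deleted against B220lo. Their members were chosen with earlier results of these data known. Of 10 kinases and STATs, all with enough UMIs, 0 were 2-fold apart in either direction, against 15.6% of all genes higher and 8.97% lower, with a median log2 ratio of 0.33 against 0.00 over all genes tested. Jak1, the kinase bound by the Il7r chain, was at 174 against 131 CPM. Of 9 tested inhibitors, 2 were higher and 2 lower, against 15.6% and 8.97% of all genes (median -0.32). Cish, an inhibitor that STAT5 is known to induce, was at 22.3 against 1.11 CPM (20.1 times, 11.1 to 40.4), and Socs2, another of that kind, was at 282 against 49.1 CPM (5.74 times, 5.24 to 6.31). Socs1 was at 8.95 against 51.5 CPM, and the phosphatase Ptpn6 (SHP-1) at 14.5 against 147 CPM.

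Among 8 tested survival and cycle genes 0 were higher and 2 lower, against 15.6% and 8.97% of all genes (median -0.76). Ccnd2, cyclin D2, was at 30.9 against 148 CPM and the kinase Pim2 at 6.50 against 52.6 CPM, while Myc was at 247 against 129 CPM. Of 8 tested other receptor chains 2 were higher and 2 lower, against 15.6% and 8.97% of all genes (median 0.07). Il21r, which pairs with the gamma chain, was at 81.9 against 26.3 CPM and Il3ra, the interleukin-3 receptor alpha chain, at 38.5 against 13.04 CPM. The BAFF receptor gene Tnfrsf13c was at 7.75 against 67.1 CPM and the chemokine receptor Cxcr4 at 18.5 against 106 CPM. Of 3 tested ligands 1 was higher and 1 lower, against 15.6% and 8.97% of all genes (median 0.29). Il7 itself was at 4.43 CPM (103 UMIs) against 0.303 CPM (3 UMIs), a ratio of 14.6 (4.86 to 72.1), and Flt3l was at 2.32 against 12.7 CPM.

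Of 12 stage genes 5 were higher and 3 lower in deleted heavy-only cells, against 15.6% and 8.97% of all genes (median 0.64). Dntt, the terminal transferase of pro-B cells, was at 1343 against 24.7 CPM, and the surrogate light chain genes Igll1 and Vpreb1 at 2583 against 623 CPM and 2728 against 362 CPM. Bach2, a transcription factor gene of the B lineage, was at 404 against 2854 CPM. Within the B220lo library Dntt was at 443 CPM without a contig and 24.7 CPM with a heavy chain, and Cish at 12.6 and 1.11 CPM. Stage and genotype cannot be told apart in the heavy-only comparison. In all no-contig cells 4 of the 12 stage genes were higher and 4 lower in the deleted library (median 0.27), against 13.1% and 12.3% of all genes. In Kit-matched no-contig cells 1 of 11 was higher (Foxo1, 1015 against 319 CPM) and 2 lower (Irf4, 5.27 against 60.9 CPM, and Bach2, 416 against 843 CPM), beside 16.4% and 4.45% of all genes. Vpreb1 was at 2777 against 1572 CPM there. Cish was at 20.9 against 12.6 CPM in all no-contig cells, a ratio of 1.66 (1.43 to 1.94), and in the Kit-matched ones at 20.6 CPM (1353 UMIs) against 31.4 CPM (52 UMIs), a ratio of 0.655 (0.497 to 0.882), where Socs1 was at 9.48 against 5.43 CPM. These 2 genes were followed there after their values were seen. Socs2 was higher there (231 against 108 CPM) and Ptpn6 lower (15.1 against 77.2 CPM), and Ccnd2 (30.1 against 116 CPM) and Ccnd3 (276 against 660.4 CPM) were the lower 2 of 6 survival and cycle genes, beside 4.45% of all genes.

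Hlf+ progenitors, cells whose leading markers were those of stem and progenitor cells and that had a UMI of the stem cell factor gene Hlf, numbered 1491 in control, 103 in deleted and 1874 in SI Kit+ cells. The median such cell had 6, 6 and 5 of the 10 progenitor markers. Depth differed, with medians of 7944, 13943 and 10244 UMIs. Flt3, the receptor that marks lymphoid priming, was at 96.3 CPM (91.3 to 102) in control, 43.3 CPM (33.4 to 55.1) in deleted and 107 CPM (103 to 112) in SI progenitors. The deleted level was lowest, 0.449 times the control (0.345 to 0.576), and the SI level was 1.12 times the control (1.04 to 1.19). Il2rg had the same order, at 93.1, 50.6 and 115 CPM, with deleted at 0.544 (0.426 to 0.685) and SI at 1.24 times the control (1.16 to 1.32).

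Kit did not differ beyond counting error, at 323, 301 and 324 CPM in control, deleted and SI progenitors, and all 3 libraries had passed the Kit sort. Crlf2 was at 146, 116 and 149.5 CPM, with deleted at 0.794 times the control (0.677 to 0.928). Il7r had 1 UMI in control, 8 in deleted (5.32 CPM, 2.30 to 10.5) and 11 in SI progenitors (0.514 CPM). Il2ra had 0, 0 and 1 UMI. Of the 4 members with at least 100 UMIs in the higher group 1 (Flt3, -1.14 on the log2 scale) was 2-fold lower in deleted progenitors, against 5.73% of genes, and 0 were higher, against 0.149%. The direction held but the value was under 2-fold with doublets kept (-0.96), as a mean of the cells' own CPM (-0.81) and with a pseudocount of 10 CPM (-0.997). The median gene was at -0.16 there. Of 9 tested other receptor chains 2 were lower, against 5.73% of genes: Il4ra (5.32 against 13.5 CPM) and Csf1r, the macrophage receptor gene (3 UMIs, 1.997 against 8.37 CPM, a ratio of 0.239, 0.0485 to 0.714). In SI progenitors 0 of 4 were 2-fold apart, against 1.14% higher and 0.848% lower.

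The 8 Il7r UMIs of deleted progenitors came with transcripts of the B lineage. Of the 103 cells 95 had a UMI of at least 1 B marker, and 2 of the 12 B markers were at 0, while the markers summed to 299 CPM against 15495 CPM in the B-lineage class. Erythroid cells of the deleted library, which should lack Il7r, had 5.53 CPM of it (6 UMIs, 50 cells), granulocytes 3.80 CPM and monocytes 8.34 CPM. Per 100 B-marker UMIs there were 1.78 Il7r UMIs in Hlf+ progenitors (0.763 to 3.53), 2.67 in B-lineage cells and 3.53 in erythroid cells (1.28 to 7.84). The Il7r of deleted progenitors is thus at the level of background and is not read as expression.

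Flt3+ progenitors were those with a Flt3 UMI and none of Hlf, so that their Flt3 is set by the rule. Control, deleted and SI cells gave 268, 10 and 269 of them, and the deleted ones are too few for a ratio. Il2rg was at 87.8 CPM in control and 117 CPM in SI cells, a ratio of 1.34 (1.13 to 1.59), and deleted cells held 15 UMIs of it. Crlf2 was at 129 and 139.8 CPM and Kit at 281 and 295 CPM, with overlapping intervals. Of the 3 tested members that the rule did not use, 0 were 2-fold apart, against 0.718% higher and 0.379% lower. Il7r had 5 control, 0 deleted and 2 SI UMIs, and Il2ra had 0 in each library.

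The lower Flt3 of the deleted library was not limited to Hlf+ progenitors among the classes measured. In granulocyte-class cells Flt3 was at 28.2 CPM in control, 5.79 CPM in deleted and 23.7 CPM in SI cells, and in monocyte-class cells at 51.6, 14.0 and 40.6 CPM. The deleted level was 0.206 times (0.140 to 0.292) and 0.272 times (0.190 to 0.377) the control. It was 1 of 4 members 2-fold lower in each of these classes, against 3.34% and 2.40% of genes, and 0 were higher, against 0.436% and 0.194%. The class lists are also progenitor stages, so a shift of stage within a class cannot be told apart from a change per cell.

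In SI cells Il2rg was above the control in every class compared. Monocyte-class cells had 68.3 against 25.2 CPM, 2.71 times the control (2.42 to 3.04) and 1 of 4 members 2-fold higher, against 2.93% of genes, and 0 were lower, against 0.359%. Granulocyte-class cells had 88.4 against 51.6 CPM (1.71 times, 1.63 to 1.80), where 0 of 4 members were 2-fold apart, against 2.43% higher and 0.863% lower. Megakaryocyte-class cells had 42.1 against 20.8 CPM (2.03 times, 1.53 to 2.69) and mast or basophil cells 138 against 90.5 CPM (1.52 times, 1.33 to 1.76). Erythroid cells differed least, with 40.0 against 35.8 CPM (1.12 times, 1.02 to 1.23). In deleted cells Il2rg was below the control in granulocyte (0.813 times, 0.707 to 0.931), monocyte (0.662 times, 0.475 to 0.903) and erythroid cells (0.618 times, 0.395 to 0.924). Both sets of ratios share the control library. Crlf2 of SI cells was higher in granulocyte-class cells (124 against 92.6 CPM) and monocyte cells (94.0 against 71.3 CPM) and level in Hlf+ progenitors.

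**Figure D5:**
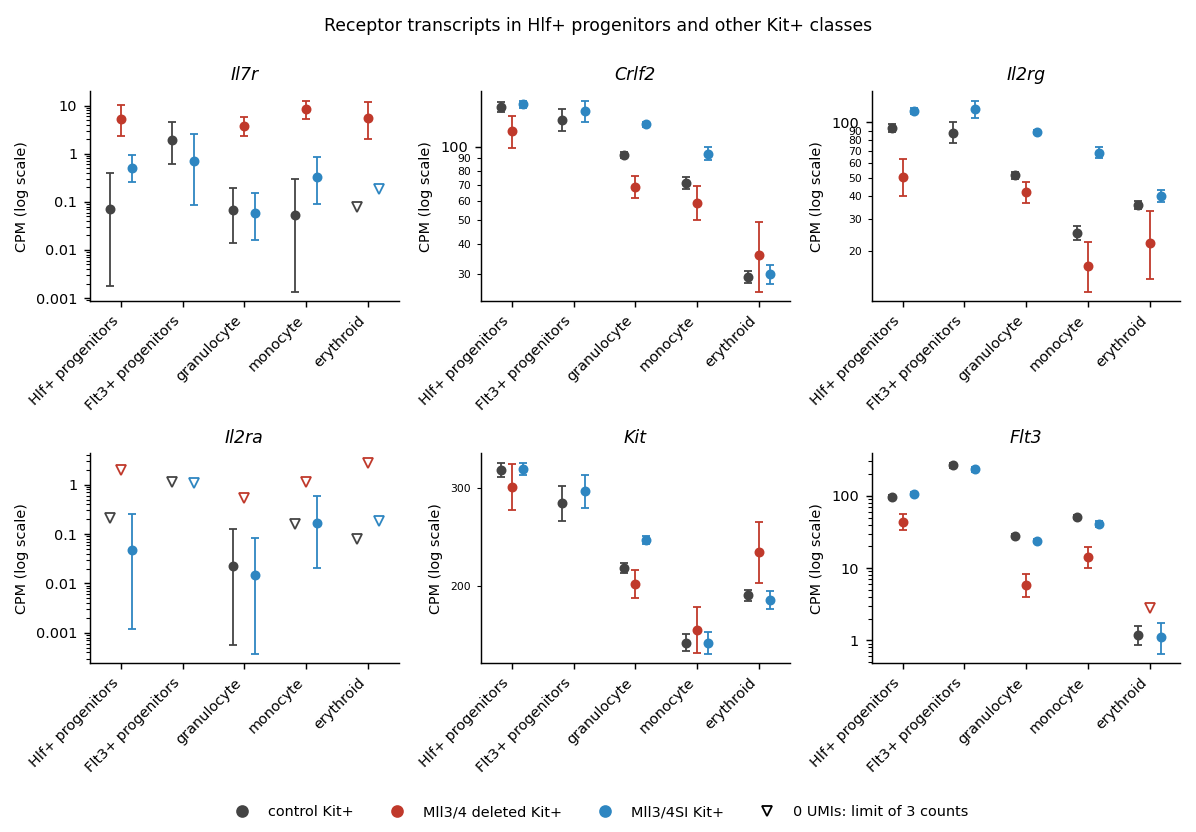
CPM (log axes) of the 6 receptors in Hlf+ and Flt3+ progenitors and in granulocyte, monocyte and erythroid classes of the 3 Kit+ libraries, for groups of at least 50 cells, with 95% Poisson intervals and open triangles for 0 UMIs at the limit of 3 counts. Flt3 and Il2rg of deleted cells lay below the control in Hlf+ progenitors (43.3 against 96.3 and 50.6 against 93.1 CPM); Flt3 in Flt3+ progenitors is set by the rule.

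The control B220lo library also held 1574 plasmacytoid dendritic cells and 657 NK or T cells by their markers. In the dendritic cells Il7r was at 269 CPM (259 to 279), Flt3 at 223 CPM (214 to 233), Crlf2 at 74.2 CPM, Il2rg at 45.9 CPM, Il2ra at 12.2 CPM and Kit at 5.76 CPM. The Il2ra level (10.2 to 14.5) overlapped that of the library's erythroid cells (6.01 CPM, 1.95 to 14.0). It lay above that of granulocytes (5.36 CPM, 2.77 to 9.36) and monocytes (5.02 CPM, 2.59 to 8.76). How much of this Il2ra is free RNA was not tested, and it is not read as expression. Against B-lineage cells of the same library Flt3 was 24.1 times higher (21.9 to 26.5) and Il7r 0.823 times (0.791 to 0.857). Per 100 B-marker UMIs these cells had 27.3 Il7r UMIs (26.2 to 28.5), against 2.54 in B-lineage and 1.76 in erythroid cells, so their Il7r stood apart from the ratio that free B-cell RNA carries. Of the 6 receptors 1 was 2-fold higher than in B cells, against 9.64% of genes, and 1 was lower (Il2ra, -3.08), against 14.1%.

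In NK or T cells Il2rg was at 464 CPM (442 to 486), 5.09 times the B-lineage level (4.82 to 5.38) and its highest level in the B220lo library among classes of 50 cells or more. Il7r was at 91.0 CPM, Il2ra at 19.5 CPM, Crlf2 at 64.2 CPM, Kit at 23.8 CPM and Flt3 at 1.63 CPM there. Of 5 receptors with enough UMIs 1 was 2-fold higher than in B cells, against 6.62%, and 3 were lower, against 21.3%.

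Shares of cells with a UMI were compared after thinning each cell to 2000 UMIs and leaving out shallower ones. Il7r was detected in 57.4% of deleted and 52.7% of B220lo heavy-only cells, with 0 of 49 and 0 of 41 erythroid cells of these libraries, which allow 6.12% and 7.32%. Kit was detected in 54.1% and 0.346%. Flt3 was detected in 5.78% and 0.761% (0 of 49 and 0 of 41 erythroid cells). Il2ra was detected in 1 of 2908 deleted and 25.8% of B220lo heavy-only cells. Without thinning, at median depths of 6336 and 3085 UMIs, the shares were 86.6% and 70.5% for Il7r, 86.0% and 0.819% for Kit, 16.9% and 1.40% for Flt3 and 0.0334% and 37.0% for Il2ra. In Hlf+ progenitors Flt3 was detected in 16.4%, 8.82% and 18.2% of cells in the control, deleted and SI libraries, and without thinning in 44.0%, 22.3% and 51.4%. After thinning, control erythroid cells gave 0.238%, and 0 of 818 erythroid cells of the SI library had a Flt3 UMI, which allows 0.367%. Without thinning the 822 SI erythroid cells held 18 UMIs of Flt3.

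Receptors were also read in pairs within cells. In the deleted B lineage Il7r and Kit were detected together in 31.4% of 12525 thinned cells (30.5 to 32.2), where the product of the single shares is 29.1%. In the B220lo B lineage Il7r and Il2ra were together in 11.4% of 10371 cells, against a product of 9.13%. Kit and Il2ra were together in 6 cells, 0.0579% (0.0212 to 0.126), against a product of 0.221%. Il2ra was thus detected in 5.77% of B220lo B-lineage cells with Kit and in 22.2% of those without it. Kit and Flt3 were together in 5 cells, 4.09 times the product, a count too small to weigh.

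Over 31 cell groups of at least 50 cells, Kit and Il2ra ran opposite to each other (Pearson r = -0.92 of log2 CPM with 1 added), and Il7r and Il2ra together (r = 0.76). These groups share libraries, depth and the marker classes, and many come from the same sort, so the values only describe. The Kit+ libraries were sorted on Kit and held almost no Il2ra, so sort and cell class cannot be told apart in the value for these genes. Among 11576 genes the profile most like Il7r was that of Blnk (r = 0.98), a B-cell adaptor gene that also helped define the B-lineage class, followed by Id3 and Sdc4. Nearest to Kit were Mgat4b (0.96), Cpq and Nbdy, and nearest to Il2ra were Slc12a3 (0.99), Fam129c and Reln. Flt3 and Il2rg had no profile as close: their nearest were Iqsec2 (0.84), Zfp467 and Phactr2, and Sqstm1 (0.82), Fam102a and Chd3. Nearest to Crlf2 were Tmem176a (0.90), Tmem176b and Smad1.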

How the data were processed

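Single-cell transcripts of 4 libraries, 1 per group, were analysed from the deposited matrices, which hold raw UMI counts per gene and barcode made by the authors. Per the submitters' processing notes Cell Ranger 7.1.0 and build mm10 were used. The authors' deposited contig tables gave the immunoglobulin chains per cell; their settings are not given in the sources used here. Barcodes with at least 1000 UMIs, 500 genes and at most 10% mitochondrial UMIs were kept. Doublets were scored with Scrublet in scanpy 1.11.5; its own threshold marked 0 or 1 barcodes in 3 libraries and so had not worked, and a score above 0.25 removed 840 control, 1168 deleted, 580 SI and 949 B220lo barcodes. Each cell took the class whose marker list had the largest detected share, with at least 3 markers and no tie; 65 to 760 cells per library stayed unclassed. Such classes are ranges, not types: of B-lineage cells 1, 9, 0 and 56 had exactly 3 markers (control, deleted, SI, B220lo). CPM are summed UMI counts of a group over its total, with exact 95% intervals (Poisson for counts, conditional Clopper-Pearson for ratios and Clopper-Pearson for shares; scipy 1.17.1), and log2 ratios carry a pseudocount of 1 CPM, which understates low genes. A count of 0 is limited at 3 counts. Groups under 50 cells get no ratio. PCR duplicates were collapsed by UMI, and intervals cover counting error only. Named genes were the 6 receptors, up to 4 genes of each pathway list and the 3 genes most alike in profile. List genes past 2-fold came first, then those with the most UMIs. The profile search left out the members, receptor segments, mitochondrial, ribosomal, unnamed and Y-linked genes, Xist and Tsix. Other X-linked genes were kept in it. The members and lists were chosen with earlier results of these data known. The ratio step was tested on simulated data. Alternatives covered doublets, cell filters, marker number, contig UMIs, denominators, clones, cycling, thinning and pseudocount.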

Additional observations from a re-analysis of the deposited data

Results flagged for a closer look

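In 7 cases the same contrast ran one way in 1 group of cells and the other way in another, with 1 library on each side, so none of these differences was tested. The heavy-only over no-contig log2 ratio of Kit was 0.06 in the deleted and -2.65 in the B220lo library, a difference of 2.71, and only the deleted cells had been sorted on Kit. With 1 cell kept per clone the deleted value turned negative too, and the B220lo heavy-only counts of Kit are not read as expression. The cycling over non-cycling ratio of Flt3 in no-contig cells was -0.16 in the deleted and 0.42 in the B220lo library, a difference of -0.58. The deleted over control ratio of Kit was -0.09 in granulocytes and 0.26 in erythroid cells (a difference of -0.35). For Flt3 the SI over control ratio was 0.16 in Hlf+ progenitors, -0.24 in granulocytes (a difference of 0.39), -0.34 in monocytes (0.49) and -1.08 in mast or basophil cells (1.24). For Kit the SI over control ratio was 0.17 in granulocytes and -0.32 in megakaryocytes, a difference of 0.48.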

How the results depend on the processing

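Of the recomputed values of main results 145 stayed on their side and near their size, 20 moved and 3 turned direction, and of the other values 341, 73 and 7 did. For Il2rg in Hlf+ progenitors, taking every cell with Hlf outside the B-lineage class gave -0.41 for deleted and 0.56 for SI over control. For deleted over B220lo heavy-only cells Il7r was 0.23 without receptor, ribosomal and mitochondrial genes in the denominator, 0.33 as a mean of the cells' own CPM, 0.014 with 1 cell per clone and 0.23 in non-cycling cells. In that comparison non-cycling cells gave 8.14 for Kit (from 2 B220lo UMIs) and -0.15 for Il2rg (turned). The mean of the cells' own CPM gave 0.052 for Il2rg, and 1 cell per clone gave 3.40 for Flt3. A pseudocount of 10 CPM gave 5.04 for Kit, 1.64 for Flt3, 0.92 for Crlf2 (under 2-fold) and -3.49 for Il2ra. For heavy-only over no-contig cells, 1 cell per clone turned the deleted library's Kit to -0.16, Flt3 to 0.34 and Il7r to -0.044. In B220lo, non-cycling cells gave -3.50 for Kit, -1.42 for Flt3 and 0.42 for Il2ra (turned), the mean of cells gave -1.29 for Flt3 and 0.041 for Il2ra (turned), and a pseudocount of 10 gave -1.24 for Kit and -1.06 for Flt3. For Ms4a1- over heavy-only cells non-cycling cells turned Il2ra to -0.31 and Il2rg to -0.047. Cells with a Kit UMI turned Flt3 to -0.12 (no contig, deleted over B220lo). For Il2ra in Flt3+ progenitors every cell outside the B class gave 0.084, from few UMIs (turned). Flt3, the 1 receptor called 2-fold lower in deleted Hlf+ progenitors, was under 2-fold in 3 settings. It was at -0.96 with doublets kept, -0.81 as a mean of cells and -0.997 with a pseudocount of 10. The cause was not tested. Progenitors with 0 B markers left 8 deleted cells, too few for a value. No paired analysis was possible because each group has 1 library, and for the same reason no replicate could be left out. Depth limits Il7r and Il2ra in progenitors, which rest on 11 UMIs or fewer.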

Other observations

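The SI Kit+ library held 40 NK or T cells with 176 UMIs of Il2rg (715 CPM), too few cells for a ratio. In SI mast or basophil cells 28 UMIs of Il7r were counted (1.92 CPM, 1.27 to 2.77) against 0 in the control, a limit of 1.25 CPM, so the SI level was at least 1.53-fold higher against that limit (1.17-fold at the near end of the exact interval).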
